A study of Mus musculus with 4 samples.

Results

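The subunits of the phagocyte NADPH oxidase, the NOX2 complex, were examined in recruited alveolar macrophages 7 days after bleomycin. The members were the rows of the count table whose symbol was one of 6 names. These were Cybb and Cyba (membrane), Ncf1 and Ncf4 (cytosolic) and the small GTPases Rac1 and Rac2. All 6 were found among the 16360 symbols of the table, and all 6 were among the 13575 genes that passed the filter on low counts. The study compared WT male mice with male mice homozygous for the R213G form of EC-SOD, the secreted superoxide dismutase encoded by Sod3. EC-SOD normally clings to the tissue matrix, and the R213G form binds it less. The strain is spelled CD57/Bl6 in the labels and the mice were 8 to 10 weeks old. Mice of both genotypes received bleomycin, a lung-injuring drug, through the trachea in a volume of 100 µl (1 U/ml). There was no untreated group, so the values describe injured lungs only. Cells were sorted as high for CD64, low for Siglec-F and high for CD11b, and each genotype had 2 libraries. The labels do not say whether a library came from 1 mouse or from pooled mice, so p-values measure the spread between libraries.

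NOX2 moves electrons from NADPH across the phagosome or plasma membrane to oxygen and makes superoxide, the substrate that EC-SOD removes outside the cell. In a resting phagocyte the membrane pair, gp91phox (Cybb) and p22phox (Cyba), is separate from the cytosolic proteins, which include p47phox (Ncf1) and p40phox (Ncf4). On stimulation p47phox is phosphorylated, the cytosolic proteins move to the membrane, and a Rac GTPase loaded with GTP completes the active enzyme. Inherited loss of a membrane or cytosolic subunit causes chronic granulomatous disease, in which phagocytes engulf microbes but fail to kill many of them.

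Total counts ranged from 33488569 to 35176210 per library. R213G replicate 1 stood apart with 13584 detected genes, against 14598 to 15194 in the other 3 libraries. Sod3 itself was low, with counts of 4 and 47 in R213G against 47 and 96 in WT. R213G is an amino acid substitution, so the level of the transcript does not check the genotype labels. The sort was checked on 7 macrophage genes (Fcgr1, Itgam, Adgre1, Cd68, Mertk, Csf1r and Lyz2), all of which had counts in every library. Itgam, which encodes CD11b, had 25095 to 29325 counts and Fcgr1, which encodes CD64, had 8334 to 8718. Neutrophils also carry abundant NOX2, and 7 of 14 neutrophil markers were in the table. Their summed level was 137 and 160 CPM in R213G and 188 and 181 CPM in WT, most of it from Mmp8 and Csf3r. S100a8 had counts in every library, 674 and 425 in R213G and 366 and 452 in WT, and its partner S100a9 had 31 in R213G replicate 1 and 0 in the other 3 libraries. The remaining neutrophil markers, Ltf, Lcn2 and Cxcr2, had at most 37 counts in any library. CPM here are counts per 1000000, taken over each filtered library size after TMM scaling, a correction for library composition.

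The start regions of the genes are shown because Cybb is a standard example of a promoter read by the myeloid factors PU.1 (Spi1) and IRF8, both of which were expressed in these cells. Each stretch holds 100 bases before and 20 bases after the transcript start in RefSeq (GRCm38.p6), read 5′ to 3′ on the gene's own strand, which is the minus strand for all 3. They lie at chrX:9469305-9469424 (Cybb), chr8:122432921-122433040 (Cyba) and chr5:134229606-134229725 (Ncf1), and only these 3 members were matched in the sequence table. In the GENCODE annotation used below for exon lengths, Cybb reaches to 9487771, upstream of this stretch. Its start therefore depends on the annotation. Capitals mark the letters that match the PU.1 core GAGGAA or the PU.1 and IRF composite (GGAA, any 2 bases, then GAAA), which overlap each other here and were searched on both strands of the window of 300 bases.
Cybb: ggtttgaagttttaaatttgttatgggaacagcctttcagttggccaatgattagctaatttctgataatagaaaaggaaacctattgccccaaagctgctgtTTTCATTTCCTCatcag
Cyba: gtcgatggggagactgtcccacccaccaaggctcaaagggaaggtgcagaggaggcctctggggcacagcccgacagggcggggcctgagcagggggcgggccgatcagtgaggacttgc
Ncf1: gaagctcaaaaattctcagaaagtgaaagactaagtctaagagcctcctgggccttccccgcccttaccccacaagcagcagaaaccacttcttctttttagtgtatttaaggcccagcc

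Cybb held both motifs as their reverse complement in the printed sequence, with the composite starting 4 bases into the transcript model. The GAGGAA core was present in 28.3% of all 32851 promoter windows and the composite in 2.72%. The windows of Cyba and Ncf1 held neither string of letters. The Cyba window was 60.7% G and C, that of Ncf1 54.0% and that of Cybb 35.3%. Spi1, named here for its motif, was at 495 and 432 CPM in R213G, against 437 and 448 CPM in WT. Irf8, named for the same reason, was at 220 and 234 CPM in R213G and at 237 and 215 CPM in WT. For both factors the values of the genotypes overlapped.

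The question put to the members was whether any subunit transcript differed between R213G and WT macrophages. None of the 6 was called, and the 4 libraries lay within 1.25-fold of each other for every member. By the edgeR quasi-likelihood test, with Benjamini-Hochberg adjustment over 13575 genes and a threshold of 0.05, 0 of 6 were higher and 0 of 6 lower, and the adjusted p was 0.9996 for each. The background in the same fit was also 0 of 13575 genes, or 0% called, so the members' count is the same as that of the whole table. At an unadjusted p under 0.05 there were 0 of 6 members, where 2.22% of all genes (302) fell. DESeq2 and limma voom called 0 of the 6 as well. For 1 of 6 members, Cyba, both R213G libraries lay above both WT libraries, which held for 13.7% of all genes. For 0 of 6 both lay below, against 15.2% of all genes. The median log2 fold change, R213G minus WT, was -0.01 over the members and -0.01 over all genes tested.

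**Figure D1:**
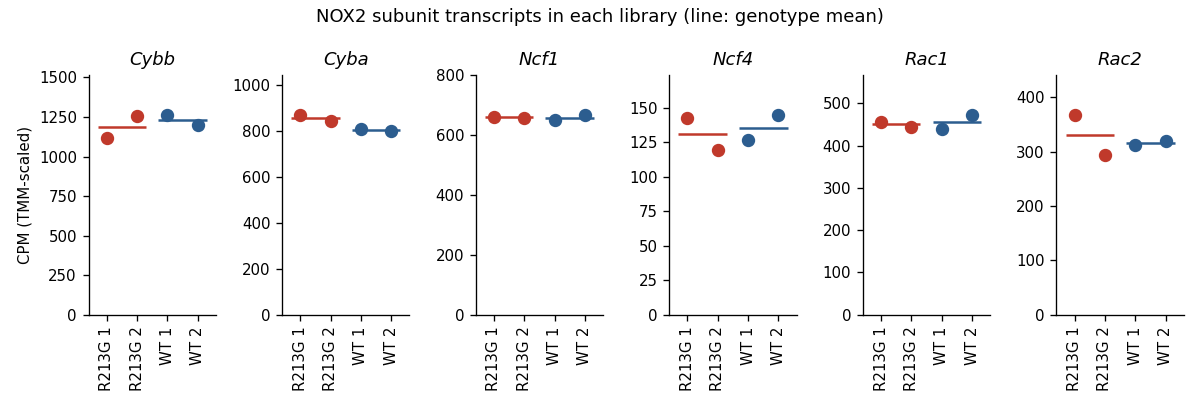
TMM-scaled CPM of the 6 members in each library (points, R213G in red and WT in blue), with the mean of each genotype as a line and each axis starting at 0. The R213G and WT points overlap for Cybb, Ncf1, Ncf4, Rac1 and Rac2 and lie higher in R213G for Cyba, and no difference was called.

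Cybb encodes gp91phox, the flavocytochrome that carries the electrons. It had the most counts of the members, with 38112 in R213G replicate 1, 43763 in R213G replicate 2, 41755 in WT replicate 1 and 41242 in WT replicate 2. These correspond to 1116 and 1258 CPM in R213G and 1264 and 1202 CPM in WT. R213G replicate 1 was the lowest library, and R213G replicate 2 lay between the WT libraries. The means were 1187 ± 100.0 CPM in R213G and 1233 ± 43.7 CPM in WT (SD, n = 2). Its log2 fold change was -0.05 ± 0.11 (SE), with a 95% interval from -0.31 to 0.20. The direction rested on R213G replicate 1, without which the value was 0.03.

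Cyba encodes p22phox, the partner that stabilises gp91phox and docks p47phox. It was at 871 and 846 CPM in R213G and at 810 and 800 CPM in WT. Both R213G libraries were higher than both WT libraries, by a margin of 36.0 CPM between the nearest pair. The means were 859 ± 17.7 and 805 ± 7.07 CPM (SD, n = 2), and the log2 fold change was 0.09 ± 0.11 with a 95% interval from -0.15 to 0.33. It kept its sign when each library was left out in turn, between 0.07 and 0.11, and its unadjusted p was 0.403 (edgeR quasi-likelihood). Its membrane partner Cybb did not share this order of libraries.

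Ncf1 encodes p47phox, the organiser whose phosphorylation starts assembly. It was at 662 and 659 CPM in R213G and at 650 and 668 CPM in WT. The 4 values lay within 1.03-fold of each other, with the WT libraries as the highest and the lowest. The log2 fold change was 0.003 ± 0.11, and the 95% interval ran from -0.24 to 0.24. It was -0.02 without WT replicate 1.

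Ncf4 encodes p40phox, which binds a phosphoinositide of the phagosome membrane and holds the complex there. It was the least abundant member, at 143 and 120 CPM in R213G and at 126 and 145 CPM in WT. Each genotype had 1 higher and 1 lower library, and the values overlapped. The log2 fold change was -0.05 ± 0.14 with a 95% interval from -0.36 to 0.26. It turned to 0.07 without R213G replicate 2 and to 0.05 without WT replicate 2.

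Rac1, the widely expressed Rac GTPase, was at 456 and 445 CPM in R213G and at 440 and 473 CPM in WT. The R213G libraries lay between the WT libraries. Its log2 fold change was -0.02 ± 0.11, with a 95% interval from -0.26 to 0.23, and it was 0.04 without WT replicate 2. Rac2, the GTPase confined largely to blood cells and the main Rac of the neutrophil oxidase, was at 368 and 294 CPM in R213G and at 313 and 320 CPM in WT. The R213G libraries were the highest and the lowest of the 4. Its log2 fold change was 0.06 ± 0.13, with a 95% interval from -0.23 to 0.36. Without R213G replicate 1 it turned to -0.10, and without R213G replicate 2 it was 0.21 (adjusted p = 0.427, edgeR quasi-likelihood).

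The intervals show what these libraries could resolve. Over the 6 members the widest bounds were -0.36 and 0.36 on the log2 scale, which correspond to a level 0.778 times and 1.28 times that of WT, and the narrowest interval, that of Cyba, ran from -0.15 to 0.33. The smallest member count, 4162 for Ncf4 in R213G replicate 2, has a counting error of 1.55%. In bulk RNA, fewer cells that carry a transcript and less of it per cell cannot be told apart.

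**Figure D2:**
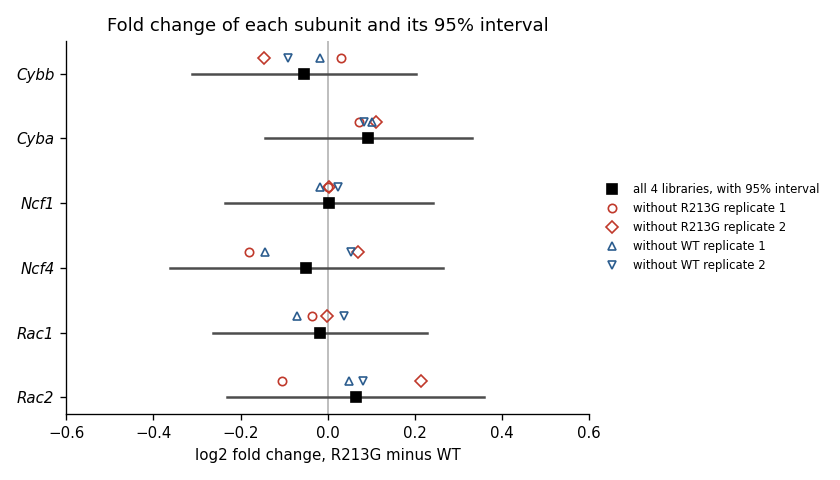
Log2 fold change of the 6 members, R213G minus WT (black squares), with the 95% interval of the edgeR fit as a line and the values with 1 library left out as open symbols. Every interval spans 0, and 5 of the 6 members had a value of the opposite sign when 1 library was left out, Cyba being the exception.

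Levels were compared between subunits per kilobase of annotated exon (GENCODE vM21, GRCm38), because a longer transcript yields more reads. Cyba was the highest, at 839 and 814 CPM per kb in R213G and 780 and 770 CPM per kb in WT. Cybb followed at a mean of 208 ± 11.8 CPM per kb (SD, n = 4 libraries) and Ncf1 at 180 ± 2.12. Rac2 and Rac1 came next at 104 ± 10.1 and 101 ± 3.30 CPM per kb and did not differ beyond their spread. Ncf4 was the lowest member at 66.0 ± 6.09 CPM per kb. The 4 ranks of Cyba, Cybb, Ncf1 and Ncf4 were the same in each of the 4 libraries. Rac2 was above Rac1 in R213G replicate 1 and WT replicate 1 and below it in R213G replicate 2 and WT replicate 2. Of 13259 tested genes with a length, 0.287% had a higher mean level than Cyba, 1.04% than Cybb, 1.28% than Ncf1 and 4.42% than Ncf4. The exon lengths are unions over all annotated transcripts, from 1039 bases for Cyba to 5808 bases for Cybb, so a subunit with rare long transcripts is placed too low. With the longest transcript in place of the union, Rac1 (109) and Rac2 (107) changed places.

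**Figure D3:**
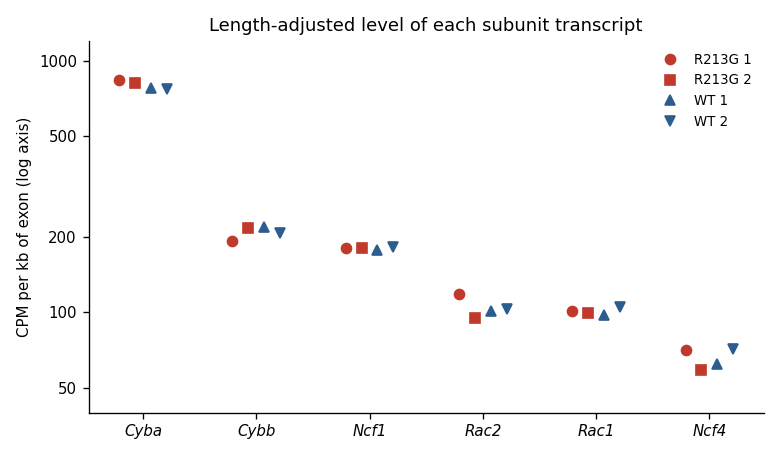
CPM per kilobase of exon for the 6 members in each library, on a log axis, ordered by mean level, with R213G in red and WT in blue. Cyba stands between 770 and 839, Cybb and Ncf1 between 177 and 218, and Rac1, Rac2 and Ncf4 between 59.2 and 119.

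The position of a gene bears on how its reads were counted. Rac1 lies on chromosome 5 from 143503634 to 143528036 (GRCm38, minus strand), and 51.4% of its exon length, 2309 bases, is shared with exons of Daglb on the opposite strand. Ncf1 lies on the same chromosome from 134220053 to 134229625 (minus strand) and shares 408 exon bases (11.1%) with Gtf2ird2 on the opposite strand. The libraries were directional, but the strand setting of the counting is not given in the sources used here, so reads from these shared stretches cannot be told apart and the levels of Rac1 and Ncf1 are uncertain to that extent. Daglb was at 191 and 161 CPM in R213G and at 162 and 168 CPM in WT, and Gtf2ird2 had 373 and 454 counts in R213G against 393 and 289 in WT. Neither was called. Cybb (X, 9435252 to 9487771), Cyba (8, 122424776 to 122432930), Ncf4 (15, 78244801 to 78262580) and Rac2 (15, 78559167 to 78572783) share no exon bases with another gene. Ncf1 and Rac1 are on the chromosome of Sod3, 81.9 and 91.1 Mb from it. Apart from Daglb and Gtf2ird2, no annotated transcript matched a member's longest transcript over more than 124 bases at 95% identity.

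The balance between subunits that work together was then read within each library, where the library scaling cancels. R213G libraries had a log2 ratio of Cybb to Cyba counts of 0.36 and 0.57, and WT libraries of 0.64 and 0.59. Both R213G libraries were lower, and the gap between them (0.36 against 0.57) was wider than the difference between the genotype means, which was -0.15. The exact permutation test over the libraries gave a two-sided p = 0.333 (0.999 adjusted over the 3 ratios), which is the smallest that 2 against 2 allows. Without R213G replicate 1 the difference was -0.04.

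For Rac2 to Rac1 the log2 ratio was -0.31 and -0.60 in R213G, against -0.49 and -0.56 in WT, a difference of 0.07 in which the R213G libraries were the extremes (exact permutation test, two-sided p = 1, adjusted 1). Per kilobase, Rac2 stood at 1.17 times Rac1 in R213G replicate 1 and 1.03 times in WT replicate 1, and at 0.958 and 0.981 times in replicate 2 of R213G and WT. The exon bases that Rac1 shares with Daglb leave the size of this ratio uncertain. The summed levels of dendritic, epithelial, B cell, T and NK cell and eosinophil markers were also higher in replicate 1 of both genotypes. That of resident alveolar macrophage markers went the other way, at 1019 and 1015 CPM in replicate 1 of R213G and WT. In replicate 2 it was 1095 and 1285 CPM. The sums of sorted macrophage, monocyte, neutrophil and endothelial markers did not go the same way in both genotypes. All 8 dendritic cell markers were in the table, and their summed level was 200 CPM in R213G replicate 1 and 217 CPM in WT replicate 1, against 68.1 and 60.4 CPM in replicate 2 of R213G and WT. Among them Xcr1 was at 0 in R213G replicate 1 and WT replicate 1, and Clec9a was at 0 in R213G replicate 1. The summed level of epithelial markers was 221 and 166 CPM in replicate 1 of R213G and WT, against 105 and 99.9 CPM in replicate 2, most of it from Cdh1. Epcam had 1101 and 491 counts in replicate 1 of R213G and WT, against 515 and 329 in replicate 2. Sftpc, Sftpb, Sftpa1, Scgb1a1 and Krt18 went the other way in both genotypes, with at most 87 counts in any library. The summed level of B cell markers was 23.9 and 18.5 against 8.10 and 6.59 CPM, most of it from Ighm. That of T and NK cell markers was 3.02 and 3.27 against 1.93 and 0.204 CPM, with at most 75 counts for any marker. Of these, Cd3e and Trac were higher in replicate 1 of both genotypes. Within R213G, Cd8a (0 against 34 counts), Lck (0 against 22) and Cd3g (0 against 5) were higher in replicate 2. The part of these markers in the Rac ratio was not tested.

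R213G libraries had a log2 ratio of Ncf1 to Ncf4 of 2.21 and 2.46, and WT libraries of 2.36 and 2.21. The genotypes overlapped, with a difference of 0.05 (exact permutation test, two-sided p = 0.667, adjusted 1).

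**Figure D4:**
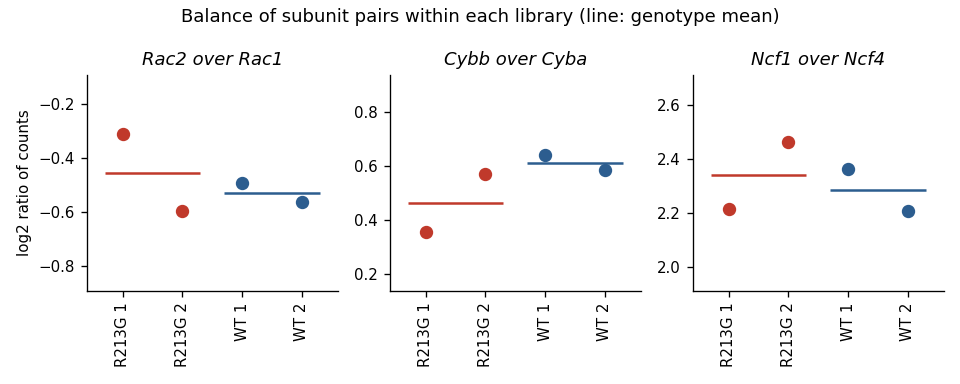
Log2 ratio of counts for 3 subunit pairs in each library (points, R213G in red and WT in blue), with the genotype means as lines. R213G replicate 1 has the highest Rac2 to Rac1 ratio (-0.31) and the lowest Cybb to Cyba ratio (0.36) of the 4 libraries.

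The members also differed in how much they varied among the 4 libraries whatever the genotype. Over all genes tested the median range of log2 CPM was 0.49, and over the 2088 genes with a mean of at least 100 CPM, the class that holds all 6 members, it was 0.24. The range was 0.04 for Ncf1, 0.11 for Rac1, 0.12 for Cyba, 0.18 for Cybb, 0.28 for Ncf4 and 0.32 for Rac2. Ncf1 was among the steadiest of the abundant genes, with 0.814% of them having a smaller range. Rac2 and Ncf4 were above the median of that class, with 70.1% and 58.9% of its genes having a smaller range. The variance over the 4 libraries was 3.08 times that of counting error alone for Ncf1 and 16.5 times for Rac1. It was 39.0 times for Ncf4, 44.1 for Cyba, 104 for Rac2 and 131 for Cybb. This ratio grows with the count of a gene, so it does not rank the members by how much they varied. For Rac2 the gap of 0.32 between the R213G libraries was the whole range, and the gap between the WT libraries was 0.03. Ncf4, whose gene lies on the same chromosome as Rac2, had gaps of 0.25 in R213G and 0.20 in WT.

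Profiles over the 4 libraries were compared by the root mean square difference of log2 CPM, each gene centred on its own mean. Ncf1 and Rac1 were the closest pair of members (0.027), and Ncf4 and Rac2 were the closest for each other (0.082). The widest pair was Cybb and Rac2 (0.187). Among 9689 other genes with a mean of at least 5 CPM, the nearest to Cybb were Fasn and Cc2d1a, to Cyba Max and Lrpprc, and to Ncf1 Vcpip1 and Ppp6r1. The nearest to Ncf4 were Gstcd and Sirpb1c, to Rac1 Dse and Gse1, and to Rac2 Ebi3 and Stard3, and all 12 distances were at most 0.0111. The closest fellow member ranked 69 of 9689 for Rac1, 107 for Ncf1, 495 for Cyba, 496 for Ncf4, 852 for Rac2 and 1373 for Cybb. Fellow members are few among so many genes, so nearer genes outside the group do not show whether the subunits resemble each other. The profiles also rest on only 4 libraries.

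Other genes of the pathway were followed through 9 lists with 83 names, 73 of which were tested. None was called (0 higher and 0 lower, edgeR quasi-likelihood), 0 had an unadjusted p under 0.05, and 40 of the 73 had a positive log2 fold change with a median of 0.02. Among all genes 6659 of 13575 were positive. Without R213G replicate 2, 4 pathway genes had an unadjusted p under 0.05, as did 1960 genes of the whole table against 302 with all libraries. They were Cebpb (0.45), Pgls (0.51), Pak1 (0.39) and Prkcb (-0.52), with the log2 fold change of that fit in parentheses, and the lowest adjusted p was 0.287 (edgeR quasi-likelihood). Pak1 and Prkcb, kinases that can phosphorylate p47phox, were named after their values were seen, and with all 4 libraries they stood at 0.15 and -0.23.

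Of 6 genes for the biogenesis and support of the complex, 5 were tested and 2 were positive. Rap1a, a small GTPase that copurifies with the membrane pair, had a log2 fold change of -0.13 ± 0.16. Nrros, an ER protein that limits the amount of gp91phox, stood at -0.06 ± 0.12, and Hvcn1, the proton channel that offsets the charge of the electrons, at 0.05 ± 0.11 with a level of 130 CPM per kb. BC017643, an earlier name of the gp91phox chaperone gene Cybc1, was at 89.9 and 69.5 CPM in R213G and 91.1 and 65.9 CPM in WT. It was higher in replicate 1 than in replicate 2 of both genotypes, as the Rac2 to Rac1 ratio was. Cybb itself was higher in replicate 1 in WT only. The share of all genes with the order seen in BC017643 was not counted, and BC017643 was named after its values were seen.

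Few counts fell on the measured genes of other NADPH oxidases. Nox1, the colon-type catalytic subunit, had 0 counts in 3 libraries and 3 in WT replicate 2, and a count of 0 allows up to 0.0879, 0.0862 and 0.0908 CPM in R213G replicates 1 and 2 and WT replicate 1 (3 counts, counting error only). Noxo1, the organiser paired with Nox1, was counted 24 and 80 times in R213G against 47 and 71 times in WT, and its log2 fold change was -0.22 ± 0.77. The other 7 names of this list are not analysed here.

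All 3 relatives of the Rac GTPases were tested. Cdc42, a regulator of filopodia and cell polarity, was at 682 and 643 CPM in R213G and at 604 and 615 CPM in WT, and Rhog, which can feed into Rac activation, had a log2 fold change of -0.04 ± 0.11. Rac3, the third Rac, was low at 3.31 and 6.24 CPM in R213G and 2.69 and 3.58 CPM in WT. Rac exchange factors, which load Rac with GTP, had 9 of 9 tested and 5 positive, with a median of 0.05. The haematopoietic factor Vav1 had the highest level of the list (67.4 CPM per kb) and a log2 fold change of 0.05 ± 0.11, Tiam1 stood at 0.11 ± 0.16 and Vav3 at 0.14 ± 0.22. Tiam2 stood at -0.21 ± 0.36, and at -0.06 without R213G replicate 2. Of 8 Rac inhibitors 5 were positive, with a median of 0.02. The dissociation inhibitors Arhgdia and Arhgdib, which hold Rac in the cytosol, were at 566 and 305 CPM per kb with log2 fold changes of 0.02 ± 0.11 and 0.09 ± 0.11, and Bcr and Arhgap25, which speed GTP hydrolysis by Rac, stood at -0.31 ± 0.34 and -0.07 ± 0.13.

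Of 18 kinases and lipid enzymes that act on the cytosolic subunits 17 were tested, and 9 were positive with a median of 0.01. The regulatory PI3-kinase subunit Pik3r1 was at 98.9 and 106 CPM in R213G and 131 and 112 CPM in WT, a log2 fold change of -0.24 ± 0.14 (edgeR quasi-likelihood, unadjusted p = 0.106). Without WT replicate 1 it was -0.12. Pik3c3, which makes the phosphoinositide bound by p40phox, stood at -0.24 ± 0.18, and Pla2g4a, which releases arachidonic acid, at 0.20 ± 0.16. Pik3c3 was -0.15 without R213G replicate 1, and Pla2g4a was 0.09 without WT replicate 1. The kinase Mapk3 had the highest level of the list (153 CPM per kb) and stood at 0.05 ± 0.11. Receptor-proximal kinases and adaptors of the oxidative burst had 10 of 10 tested and 3 positive, with a median of -0.04. Among them the kinases Syk and Lyn stood at -0.11 ± 0.12 and 0.07 ± 0.11, the adaptor Card9 at -0.07 ± 0.12 and the adaptor Tyrobp, the highest at 1317 CPM per kb, at -0.02 ± 0.11.

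Transcription factors linked to NOX2 genes had 9 of 9 tested and 5 positive, with a median of 0.004. Cebpb, a factor of myeloid and inflammatory genes, was at 794 and 574 CPM in R213G and 552 and 613 CPM in WT, so that its log2 fold change of 0.23 ± 0.15 rested on R213G replicate 1 and was -0.02 without it. The NF-kB subunit Rela stood at -0.20 ± 0.13, and at -0.07 without WT replicate 1. Both R213G libraries lay below both WT libraries, as they did for 15.2% of all genes. Cux1, which can repress the Cybb promoter, stood at -0.10 ± 0.13, and at 0.05 without R213G replicate 1. Of 11 genes of NADPH supply, the fuel of the oxidase, 9 were positive with a median of 0.04. Pgls, Rpe and Rpia of the pentose phosphate pathway stood at 0.28 ± 0.18, 0.23 ± 0.18 and 0.25 ± 0.20, and Taldo1, the most abundant per length at 144 CPM per kb, at 0.04 ± 0.11. Without R213G replicate 1 the values of Pgls, Rpe and Rpia were 0.02, 0.11 and 0.09.

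**Figure D5:**
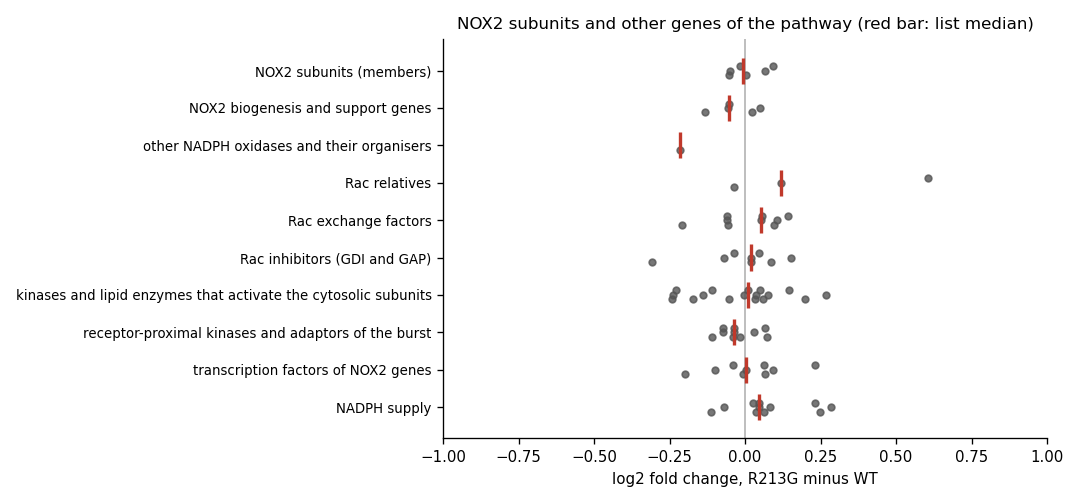
Log2 fold change, R213G minus WT, of every tested gene (grey points) of the 6 members and the 9 pathway lists, with the median of each list as a red bar. The points lie between -0.31 and 0.60, and none was called.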

How the data were processed

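Poly(A) RNA of sorted macrophages was sequenced from directional libraries, 2 per genotype. The deposited table held raw counts for each gene symbol in each library, and these were used unchanged. Reads were aligned with STAR 2.5.1b and counted with featureCounts (Subread 1.4.4) on GRCm38, per the submitters' processing notes. For the annotation, strand setting and treatment of multiply mapped reads, nothing is stated there. Columns were matched to samples through the labels' short names.

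All genes were tested at once with the edgeR 4.0.16 quasi-likelihood test (newer form, robust, TMM, filterByExpr by genotype, Benjamini-Hochberg, threshold 0.05), with 2 residual degrees of freedom. The SE of a log2 fold change is its size over the square root of F, and its 95% interval uses the fit's total degrees of freedom. DESeq2 1.42.0 and limma 3.58.1 (voom) were alternatives. Exon lengths came from GENCODE vM21, matched by symbol for 13259 tested genes, promoters from RefSeq (GRCm38.p6). Scripts were tested on simulated data. Floors cover counting error only, and duplicate reads were not separable.

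The members and lists were chosen with earlier results of these data known. Named genes were the members, in each list the 3 of smallest p and the one of highest CPM per kb, and the 2 nearest profiles of each member; Spi1, Irf8, BC017643, Pak1, Prkcb and overlapping genes were added for the reason given with each. From the lists, 3 genes are not reported here and entered no count of a list. For the cell type lists not printed in the report, the gene of highest mean CPM was Fabp5 (resident alveolar macrophage), Ccr2 (monocyte), Siglecf (eosinophil), Cd3e (T and NK cell), Ighm (B cell), Cdh1 (epithelial), Vwf (endothelial) and Col1a1 (fibroblast).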

Additional observations from a re-analysis of the deposited data

How the results depend on the processing

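No member was called under any of the 12 alternatives, and no fold change of a member or a named pathway gene changed sign under the 8 that kept all 4 libraries. Over all genes, 0 were called with all libraries in edgeR and limma voom, 1 (Clrn2) by DESeq2, 302 at an unadjusted p under 0.05 (71 to 1960 when 1 library was left out), and between 0 and 2 when 1 library was left out; the 2, Lars2 and Gm42418, were called without R213G replicate 2. Leaving out 1 library in turn changed the sign for 5 of 6 members, with log2 fold changes of -0.15 to 0.030 for Cybb, -0.018 to 0.023 for Ncf1, -0.18 to 0.069 for Ncf4, -0.070 to 0.036 for Rac1, -0.10 to 0.21 for Rac2. It did so for 15 of 30 named pathway genes, with -0.14 to 0.033 for Nrros, -0.028 to 0.12 for Hvcn1, -1.32 to 0.39 for Noxo1, -0.083 to 0.33 for Tiam1, -0.15 to 0.51 for Vav3, -0.0095 to 0.11 for Vav1, -0.72 to 0.0070 for Bcr, -0.0024 to 0.17 for Arhgdib, -0.19 to 0.040 for Arhgap25, -0.015 to 0.057 for Arhgdia, -0.0016 to 0.10 for Mapk3, -0.10 to 0.075 for Tyrobp, -0.020 to 0.45 for Cebpb, -0.27 to 0.045 for Cux1, -0.031 to 0.10 for Taldo1. Another 13 kept their sign and moved by over 1.5 times, with 0.070 to 0.99 for Rac3, 0.078 to 0.16 for Cdc42, -0.056 to -0.022 for Rhog, -0.38 to -0.060 for Tiam2, -0.35 to -0.12 for Pik3r1, -0.34 to -0.15 for Pik3c3, 0.091 to 0.32 for Pla2g4a, -0.21 to -0.00016 for Syk, -0.12 to -0.031 for Card9, -0.31 to -0.073 for Rela, 0.017 to 0.51 for Pgls, 0.11 to 0.36 for Rpe, 0.090 to 0.39 for Rpia. The difference in log2 ratio ran from -0.070 to 0.22 for Rac2 over Rac1, -0.26 to -0.042 for Cybb over Cyba and -0.069 to 0.18 for Ncf1 over Ncf4. Rac1 ranked 4 and Rac2 5 with the longest transcript as length and, by the main length, between 4 and 5 when 1 library was left out. Leaving out a library leaves 1 sample in a genotype, which is then assumed to vary like the other.

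The replicate numbers are shared by the genotypes, but nothing in the labels ties them to a batch. Deviations of same-numbered libraries correlated at 0.193 across 9690 genes, which are not independent. With the replicate block 0 genes and 0 of 6 members were called, and the log2 fold changes were -0.057 for Cybb, 0.093 for Cyba, 0.0028 for Ncf1, -0.051 for Ncf4, -0.017 for Rac1, 0.056 for Rac2. It changed no other call.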
